A study of Rattus norvegicus with 12 samples.

Results

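The response of rat ventral midbrain cultures to KCl depolarization was compared between collection at 2 h and collection at 30 min after the end of the stimulus. For every probe set the quantity was the response difference, which is the response at 2 h (depolarized minus control, in log2 units) minus the response at 30 min. A value above 0 therefore means that the depolarized cultures stood higher against their own controls at 2 h than at 30 min. All 12 of the 12 samples of the series were used, and all 15866 of 15923 probe sets that were not array controls were tested.

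Cells came from the ventral midbrain of CD1 rat embryos at embryonic day 12. Sonic hedgehog at 50 ng/ml and bFGF, a fibroblast growth factor, at 20 ng/ml, which act on midbrain progenitors, were present for the first 6 days and left out for the last 3 of 9 days in vitro. Of the 4 groups, each with 3 arrays, the depolarized group at 30 min had 2 h of 56 mM KCl and was collected 30 min later, and the depolarized group at 2 h had the same KCl treatment and was collected 2 h later. Their controls spent those 2 h in control medium and were collected at the same 30 min or 2 h. The litters of 4 rats were combined and then handled as 3 separate lots, and each array received the pooled RNA of a pair of cultures, so p-values reflect spread between pooled cultures and not between animals. The 30 min arrays carry replicate numbers 1 to 3 and the 2 h arrays 4 to 6. Whether 1 preparation served both times is not stated, so preparation and time cannot be told apart in a change between the times. The same holds for the response difference if preparations differed in their response to KCl.

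High extracellular KCl opens voltage-gated calcium channels, and the entering calcium activates kinases that act on transcription factors already present in the cell. Immediate-early genes such as Fos and Egr1 are transcribed without new protein synthesis and usually decline within hours, because their mRNAs are unstable and because products such as the phosphatase Dusp1 and the mRNA-destabilizing protein Zfp36 feed back on the signal. Genes that depend on the newly made factors, including those of secreted and synaptic proteins, usually follow later.

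Arrays of a group correlated across probe sets at 0.99573 to 0.99791 and arrays of different groups at 0.9717 to 0.99224, and array medians lay between 8.326 and 8.433 log2 units. The dopaminergic marker Th, tyrosine hydroxylase, was at 7.53 ± 0.12 and 7.71 ± 0.14 in control and depolarized arrays at 30 min and at 7.96 ± 0.17 and 7.87 ± 0.32 at 2 h (mean log2 ± SD, n = 3 each), the 39.47th percentile of probe set levels. The astrocyte marker Gfap had a mean over all arrays of 8.48 and the GABAergic marker Gad1 of 9.81 at its brighter probe set, so the arrays did not carry dopaminergic signal alone. Of 13 pan-neuronal markers 12 rose between the collection times in control cultures (18.1% of all probe sets did) and 11 in depolarized cultures (19.2% of all), and 0 fell in either. In cultures of mixed cells, fewer cells of a type and less RNA per cell cannot be told apart.

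Promoter letters were read for the genes on the array because the time course groups described below contain genes known to respond through different regulatory elements. The sequences shown hold the serum response letters of Egr1 and Egr2 (immediate-early factors that faded), the cyclic AMP response letters of Dusp1 (faded) and Plk2 (transient), and the AP-1 letters of Srxn1 and Emp1 (grew). The motif is in capitals, all are 5′ to 3′ on the gene's strand, and all come from RefSeq promoters of the rat GRCr8 build.
Egr1 (chr18:26736953-26737002, plus strand): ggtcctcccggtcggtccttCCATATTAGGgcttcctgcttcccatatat
Egr2 (chr20:21054495-21054544, minus strand): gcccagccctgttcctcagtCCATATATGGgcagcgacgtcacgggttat
Dusp1 (chr10:17184709-17184756, plus strand): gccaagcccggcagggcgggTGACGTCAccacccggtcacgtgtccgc
Plk2 (chr2:43702450-43702497, plus strand): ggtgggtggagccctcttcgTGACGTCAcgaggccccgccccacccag
Srxn1 (chr3:161064730-161064776, plus strand): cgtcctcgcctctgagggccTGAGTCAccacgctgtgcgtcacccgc
Emp1 (chr4:169943998-169944044, plus strand): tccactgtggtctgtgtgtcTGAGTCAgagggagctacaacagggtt

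Of 10411 genes on the array, 8610 matched a RefSeq promoter of 300 bases (250 before and 50 after the start), and both strands were searched. The serum response letters in capitals for Egr2 occurred in 2 of 40 promoters of genes that rose at both times and faded (5.0%), which are Egr1 and Egr2 themselves, in 1 of 276 promoters of transient rises (0.362%) and in 0.0465% of all genes on the array. Those in capitals for Egr1 occurred in 1 of the 40 (2.5%), again Egr1, and in 0.0813% of all. The AP-1 letters TGACTCA, shown above on the other strand, occurred in 5 of 27 promoters of genes that rose at both times and grew (18.5%), against 3.82% of all genes on the array. They occurred in 6.17% of late rises, 3.62% of transient rises and 1.95% of late falls. Fading rises and fading falls each had them in 5.0%, genes higher then lower in 4.41% and transient falls in 2.7%. Growing falls had them in 1 of 11 promoters (9.09%), and genes lower then higher in 0 of 78. The cyclic AMP response letters TGACGTCA occurred in 7.5% of fading rises, 4.35% of transient rises, 5.41% of transient falls and 2.73% of late falls, against 2.86% of all. Growing and late rises each had them in 3.7%, genes lower then higher in 2.56%, genes higher then lower in 1.47% and fading falls in 0 of 60. The antioxidant letters TGACNNNGC, which can overlap the AP-1 letters, occurred in 25.9% of growing rises, 18.5% of late rises, 19.6% of transient rises, 20.9% of transient falls and 14.5% of late falls, against 14.6% of all, and so were not limited to rising genes. The EGR letters GCGTGGGCG stood in 1.03% of all promoters of the array's genes, the CCAAT box letters ATTGG in 37.6% and the sterol letters ATCACCCCA in 0.0929%. These are counts of letters in a fixed window, over few promoters in the smaller groups.

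The response differed between collection times for 2055 of 15866 probe sets (13% of those tested) at an adjusted p of 0.05 by limma. It was higher at 2 h for 978 (6.16%) and lower for 1077 (6.79%), which are 770 and 815 genes with a symbol. The median size of a called difference was 0.4971 log2 units, and 148 probe sets differed by at least 1 log2 unit, 92 upward and 56 downward. The direction with more calls depended on scaling: 47.59% of calls were above 0 in the deposited values and 52.88% after quantile normalization.

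Sorted by their calls at each time, the most frequent time courses were responses present at 30 min and no longer called at 2 h. There were 449 transient rises (2.83% of probe sets tested), which were higher at 30 min and not called at 2 h, and 418 transient falls (2.63%). Late responses, called at 2 h and not at 30 min, made up 384 falls (2.42%) and 279 rises (1.76%). This order depended on the setting. Late falls outnumbered transient falls without the dimmest 50% of probe sets (334 against 282). They also did without control replicate 1 (382 against 353) or depolarized replicate 2 (365 against 347) at 30 min. Without control replicate 6 at 2 h there were 477 late falls, 380 transient falls and 470 transient rises. Fewer probe sets passed in the same direction at both times: 73 fading rises (0.46%), 46 growing rises (0.29%), 101 fading falls (0.637%) and 20 growing falls (0.126%). In 106 probe sets (0.668%) a rise at 30 min was followed by a fall below control at 2 h, and in 112 (0.706%) a fall was followed by a rise. A further 67 (0.422%) passed for the difference and at neither time. Several of these counts depended on single arrays. The growing falls numbered between 4 and 35 with 1 array left out, and all but depolarized replicates 5 and 6 at 2 h moved them by over 1.5 times. The fading falls numbered 59 and 62 without control replicates 4 and 5 and 62, 65 and 61 without depolarized replicates 4, 5 and 6, all at 2 h, and the growing rises 72 without depolarized replicate 5 at 2 h. The late falls numbered 234 without control replicate 5 at 2 h and 236 without depolarized replicate 4 at 2 h. The higher-then-lower group numbered 60 without control replicate 4, 55 without control replicate 5 and 65 without depolarized replicate 4, all at 2 h.

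**Figure D1:**
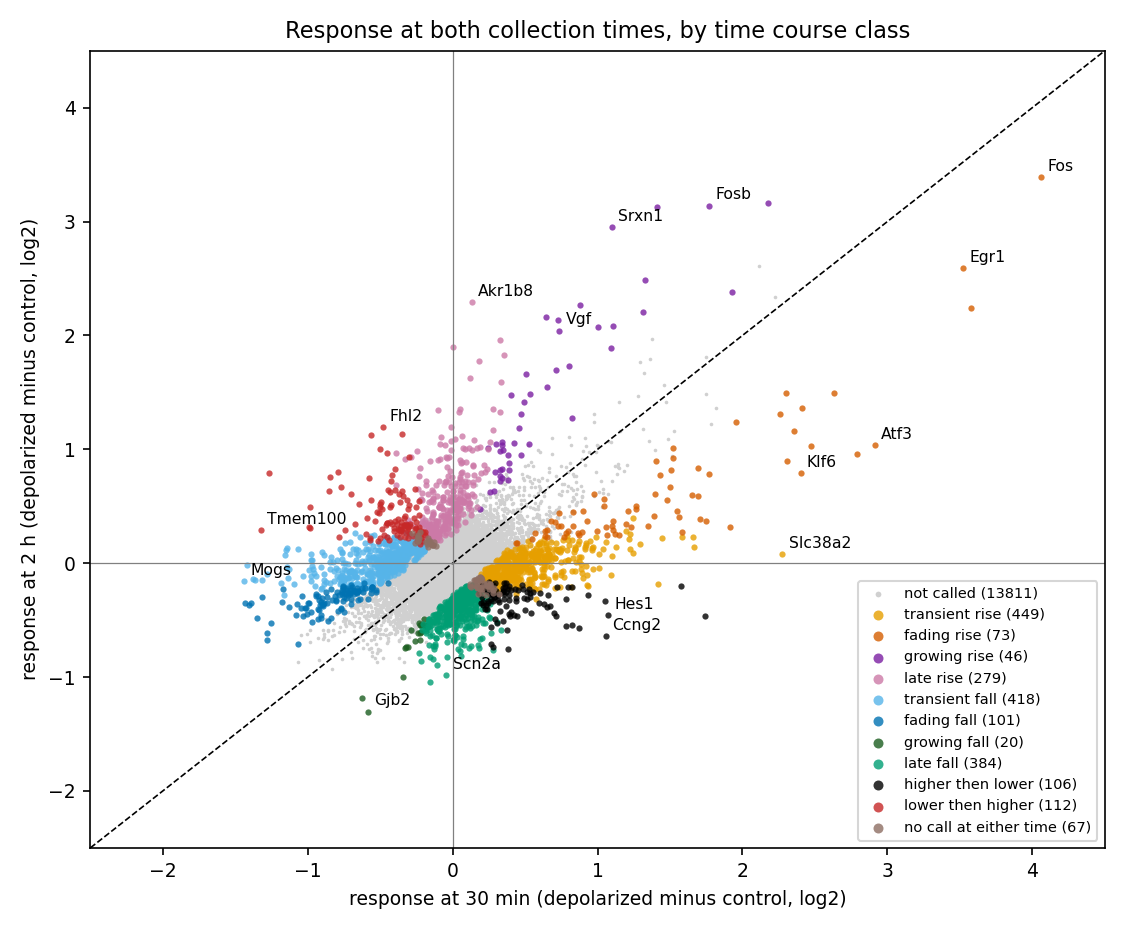
Response at 30 min (x axis, depolarized minus control, log2 units) against response at 2 h (y axis, same units) for every probe set, coloured by time course group; the dashed line marks equal responses. Transient responses lie along the horizontal 0 line, late responses along the vertical 0 line, and the 106 and 112 probe sets of opposite responses in the lower right and upper left.

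Differences of at least 1 log2 unit were spread unevenly over these groups, with no test of the spread. Of the 73 fading rises 18 differed by at least 1 log2 unit, as did 19 of the transient rises, 29 of the late rises and 1 of the 384 late falls. The median response of fading rises went from 1.23 at 30 min to 0.41 at 2 h, and that of growing rises from 0.47 to 1.23. Late falls had a median response of 0.06 at 30 min and -0.39 at 2 h.

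Of the immediate-early transcription factors that differed between the times, most had a lower response at 2 h. Of 27 measured, 25 were higher than control at 30 min (10.8% of all probe sets were called higher there) and 23 at 2 h (9.51% of all), yet 10 were lower for the response difference and 2 were higher, a share of 44.4% against 14.1% of all genes with a symbol. The median response difference of the list was -0.26, against -0.02 over all genes, and it was -0.45 without depolarized replicate 4 and -0.10 without depolarized replicate 5 at 2 h. Without that replicate 5 the higher members numbered 4. Atf3, a stress-induced factor of the ATF family, was at 9.61, 9.87 and 9.30 log2 units in depolarized arrays at 30 min against 6.63, 6.64 and 6.76 in controls, and at 7.87, 7.34 and 8.03 against 6.73, 6.66 and 6.74 at 2 h. The depolarized arrays stayed above all controls at both times while their level came down, and the response difference was -1.88 (SE 0.21, adjusted p = 2.27e-05 by limma), 3.68-fold. Controls of Atf3 differed by 0.03 between the times (adjusted p = 0.882).

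Klf6, a zinc finger factor of the Krüppel-like family, behaved likewise at both of its probe sets, with differences of -1.61 and -1.83. Junb, a subunit of AP-1, was at 10.48, 10.28 and 9.93 in depolarized arrays at 30 min and at 8.92, 8.19 and 8.64 at 2 h, with controls between 7.49 and 7.90 throughout (difference -1.45, SE 0.21, adjusted p = 0.000288). Jun, another AP-1 subunit, had -1.38, -1.09 and -0.99 at its 3 probe sets. Fos declined little: its depolarized arrays were at 10.89, 11.25 and 11.01 and then at 10.37, 10.42 and 10.33, with controls between 6.90 and 7.08. The Fos difference was -0.67 (SE 0.12, adjusted p = 0.00104). Another Fos probe set, with no called response at either time (0.10 and 0.05), had -0.05 (adjusted p = 0.804).

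Egr1 and Egr2, zinc finger factors, also had a lower response at 2 h, but their depolarized arrays at 2 h disagreed. Egr2 was at 9.45, 7.80 and 9.09 in depolarized replicates 4, 5 and 6 and Egr1 at 11.53, 10.47 and 11.29, so replicate 5 was lowest for both. The difference was -1.34 for Egr2 (SE 0.38, adjusted p = 0.0294) and -0.93 for Egr1 (SE 0.27, adjusted p = 0.0282). Without depolarized replicate 5 at 2 h the values were -0.85 for Egr2 and -0.62 for Egr1. For Egr1, leaving out control replicate 2 or 3 at 30 min ended the call (adjusted p = 0.0653 and 0.0633), as did leaving out depolarized replicate 1 or 2 (0.0517 and 0.0645) and, at 2 h, control replicate 4 or 5 (0.0661 and 0.0612). For Egr2 the same held for control replicate 3 (adjusted p = 0.0718) and depolarized replicates 1 and 2 (0.0545 and 0.0542) at 30 min and for control replicates 5 and 6 at 2 h (0.0718 and 0.0566). A trended and robust prior ended both calls (adjusted p = 0.0896 for Egr1 and 0.103 for Egr2), as did an ordinary test (0.16 and 0.17). A dimmer Egr2 probe set had -0.54 (adjusted p = 0.0939).

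Of the list, 2 members went the other way. Fosb, which encodes an AP-1 subunit with a long-lived splice form, was at 8.16, 8.02 and 7.91 in depolarized arrays at 30 min and at 8.89, 9.38 and 9.21 at 2 h, against controls of 6.19, 6.27 and 6.32 and then 5.81, 6.28 and 5.97. All depolarized arrays at 2 h lay above those at 30 min, and the difference was 1.37 (SE 0.17, adjusted p = 6.72e-05). Fosl1, another FOS family subunit, went from a response of 0.65 to 1.54 (difference 0.89, SE 0.21, adjusted p = 0.0103).

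Of 12 MAP kinase phosphatases and Sprouty-type inhibitors measured, 2 had a higher and 2 a lower response at 2 h. Called members made up 33.3%, against 14.1% of all genes, and the list median was 0.22. The called total was 2 without control replicate 3 or depolarized replicate 3 at 30 min. Dusp1, which dephosphorylates MAP kinases, was at 10.05, 9.95 and 9.85 in depolarized arrays at 30 min against controls of 8.06, 8.08 and 7.97, and at 8.70, 8.53 and 8.53 against 8.20, 8.27 and 8.33 at 2 h. The groups did not overlap at either time, and the response went from 3.76-fold to 1.25-fold (difference -1.59, SE 0.10, adjusted p = 1.18e-07). Dusp14, of the same phosphatase family, did the reverse: it fell by 0.37 at 30 min and rose by 0.61 at 2 h (difference 0.97, adjusted p = 2.4e-05). Dusp6, an ERK phosphatase, had responses of 1.29 and 1.77 that did not differ by the test (0.48, SE 0.21, adjusted p = 0.16), while its level fell between the times by 1.32 in depolarized and by 1.80 in control cultures.

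Genes of mRNA decay had lower responses at 2 h in 7 of 14 measured members and a higher one in 1. The called share was 57.1%, against 14.1% of all genes, and the list median was -0.30. Zfp36, which binds AU-rich elements and recruits the deadenylase complex, was at 10.04, 10.01 and 9.79 in depolarized arrays at 30 min and at 8.35, 8.09 and 8.49 at 2 h. Its controls were at 7.45, 7.56 and 7.77 and then 6.96, 7.28 and 7.21, so the response remained above all controls at both times (difference -1.19, SE 0.16, adjusted p = 0.000111). Among subunits and partners of that complex, Cnot4 went from 0.82 above control to 0.54 below it, and Btg1, an antiproliferative cofactor, from 0.23 above to 0.37 below.

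Among genes with a symbol, the largest difference below 0 was that of Slc38a2, which carries neutral amino acids into the cell with sodium and is a target of ATF4. It was at 11.46, 11.63 and 11.65 in depolarized arrays at 30 min against 9.37, 9.27 and 9.27 in controls, and at 10.03, 9.80 and 9.93 against 9.79, 9.80 and 9.93 at 2 h. The groups were far apart at 30 min and overlapped at 2 h, a 4.84-fold and a 1.06-fold response (difference -2.19, SE 0.11, adjusted p = 6.4e-09). Both treatments changed: Slc38a2 fell by 1.66 in depolarized cultures and rose by 0.53 in controls.

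Genes of the ATF4 integrated stress response went both ways. Of 23 measured, 6 had a higher and 3 a lower response at 2 h (39.1%, against 14.1% of all genes, median 0.15). At 2 h the called members were 14 higher and 1 lower, against 7 and 2 at 30 min. Over all probe sets 9.51% were called higher and 15.7% lower at 2 h, against 10.8% and 13.1% at 30 min. Cebpb, a partner factor of ATF4, was at 7.38, 7.17 and 7.24 in depolarized arrays at 30 min and at 8.86, 8.60 and 8.64 at 2 h, with controls between 6.88 and 7.24. Only the depolarized arrays at 2 h stood apart (difference 1.5, SE 0.13, adjusted p = 2.9e-06). The cationic amino acid transporter Slc7a1 went from 0.14 to 1.08 (difference 0.94, adjusted p = 8.59e-05). Ddit4, an mTOR inhibitor, went from 0.33 to -0.14, and Ddit3, the factor CHOP, from 1.48 to 0.55.

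**Figure D2:**
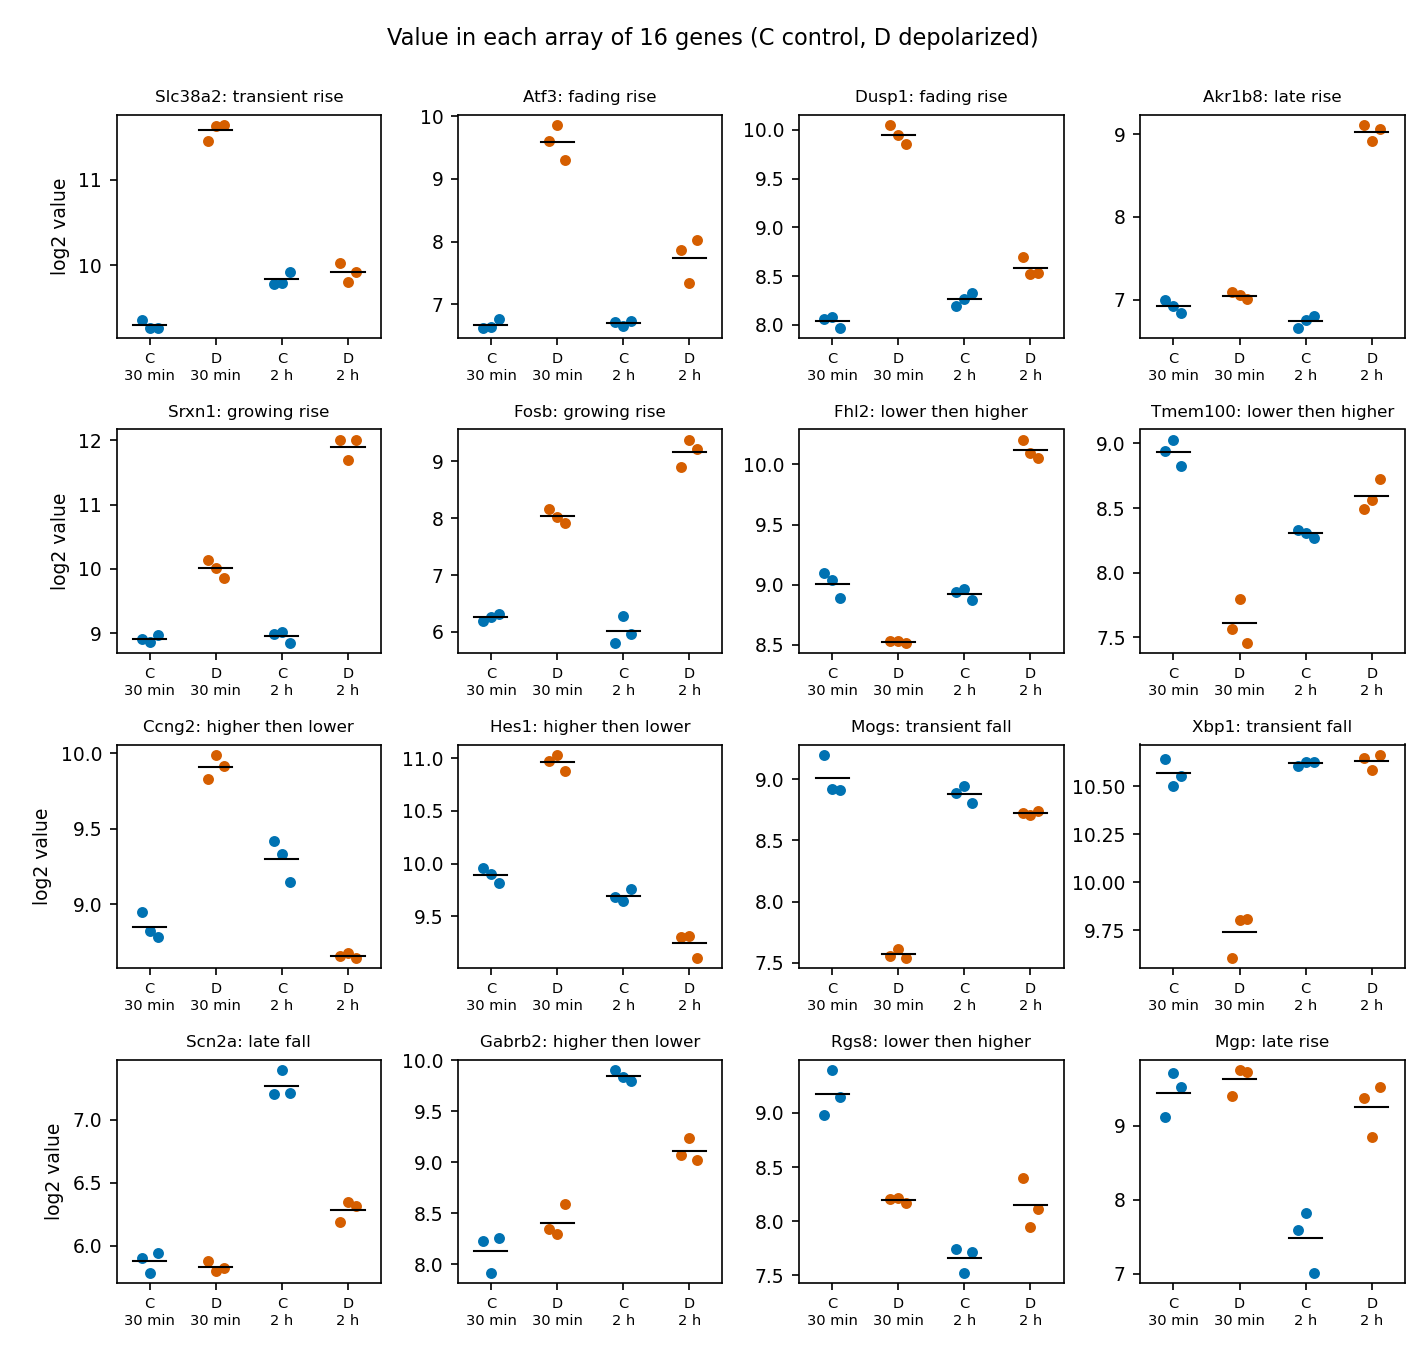
Level of 16 genes on each array (y axis, log2 units, scaled per panel) in the 4 groups (x axis); each point is 1 array and each black line the mean of 3. Slc38a2 and Dusp1 stand high in the depolarized arrays at 30 min, Akr1b8 and Fhl2 in those at 2 h, and for Mgp, Rgs8 and Gabrb2 the controls of the 2 times differ by more than the depolarized arrays.

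Among other transient rises, Ccn1, a secreted matricellular protein, went from a response of 1.58 to 0.23 (difference -1.36, adjusted p = 3.14e-06). Rbbp6, a ubiquitin ligase that binds RB and p53, went from 1.42 to -0.18 (difference -1.60, adjusted p = 1.09e-06), and Pygm, muscle glycogen phosphorylase, from 1.24 to 0.09. For Pygm other probe sets had -0.72 (adjusted p = 0.00233) and -0.08 (adjusted p = 0.803). Ubiquitin ligases and conjugating enzymes had 30 lower and 14 higher response differences among 183 measured (24%, against 14.1% of all genes). Transient rises made up 19 of the lower ones. The called total was 29 without control replicate 2 at 30 min. Ube2g1, a conjugating enzyme of ER-associated degradation, was at 11.35, 11.50 and 11.46 in depolarized arrays at 30 min against 10.68, 10.44 and 10.52 in controls, while at 2 h the groups overlapped (difference -0.94, SE 0.11, adjusted p = 4.46e-05).

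Of 17 cytosolic heat shock genes 5 had a lower and 3 a higher response at 2 h (47.1%, against 14.1% of all genes). The lower ones numbered 3 without control replicate 2 or 3 or depolarized replicate 2 at 30 min, and without control replicate 5 or depolarized replicate 6 at 2 h. The J-domain cochaperone Dnajb4 went from a response of 0.80 to one of -0.21. Dnajb1, of the same kind, went from 0.64 to 0.17 and the HSP90 cochaperone Chordc1 from 0.71 to -0.21, neither called at 2 h (adjusted p = 0.0774 and 0.0687). The cochaperone Bag3 went from 0.47 to 1.31, and the small heat shock gene Hspb8 from 0.13 to 0.61. Of 19 genes of the ER unfolded protein response 3 differed (15.8%, near the 14.1% of all genes). Dnajb9, an ER cochaperone, went from 0.84 to -0.07 (difference -0.91, adjusted p = 2.09e-05), and Xbp1, a transcription factor of that response, went the other way.

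Sterol biosynthesis genes had lower responses at 2 h in 11 of 23 measured members and higher ones in 0. That was 47.8% called, against 14.1% of all genes, with a median of -0.34. By limma 13 of the 23 were above control at 30 min and 8 at 2 h, while 2 were below at 30 min (13.1% of all probe sets were called lower there) and 5 at 2 h (15.7% of all). Msmo1, which removes C4 methyl groups from sterols, was at 12.16, 12.07 and 12.12 in depolarized arrays at 30 min and at 11.29, 11.06 and 11.32 at 2 h, with controls at 10.84, 10.81 and 10.83 and then 11.07, 11.09 and 11.02. The arrays of the 2 treatments were apart at 30 min and overlapped at 2 h (difference -1.13, SE 0.10, adjusted p = 2.8e-06). Idi1, isopentenyl diphosphate isomerase, went from 1.65 to 0.59 (difference -1.06, adjusted p = 3.13e-05, and -1.10 at another probe set) and Sqle, squalene epoxidase, from 0.96 to 0.11.

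Control cultures took part in the change of the sterol list. Between the times 16 of its 23 members rose in controls (18.1% of all probe sets did) and 0 fell, while in depolarized cultures 4 rose (19.2% of all) and 8 fell (21.8% of all). The median change was 0.32 in controls and -0.15 in depolarized cultures. Hsd17b7, a reductase of the same pathway named after its values were seen, rose by 0.61 in controls and changed by -0.19 in depolarized cultures (adjusted p = 0.0981).

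NRF2 antioxidant targets had higher responses at 2 h in 9 of 15 measured members and lower ones in 0. Called members made up 60%, against 14.1% of all genes, and the median was 0.44. Akr1b8, an aldo-keto reductase, was at 7.09, 7.05 and 7.0 in depolarized arrays at 30 min against 6.99, 6.92 and 6.84 in controls, and at 9.11, 8.91 and 9.06 against 6.66, 6.76 and 6.80 at 2 h. Its response went from 1.09-fold to 4.89-fold (difference 2.16, SE 0.10, adjusted p = 5.29e-09). Srxn1, sulfiredoxin, which reactivates oxidized peroxiredoxins, was at 10.15, 10.01 and 9.86 in depolarized arrays at 30 min and between 11.70 and 12.01 at 2 h, with all 6 controls between 8.85 and 9.02 (difference 1.85, SE 0.13, adjusted p = 2.88e-07). It was above control at both times and higher in every depolarized array at 2 h.

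Further members of the list also had higher responses at 2 h. Nqo1, a quinone reductase, was below control by 0.26 at 30 min and above it by 0.65 at 2 h (difference 0.91, adjusted p = 2.27e-05). Hmox1, heme oxygenase, went from 1.09 to 1.89, Gclc, the catalytic subunit of glutamate-cysteine ligase, from -0.16 to 0.89, and its modifier subunit Gclm from 0.08 to 0.68, these 3 named after their values were seen. In depolarized cultures 10 of the 15 rose between the times and 2 fell (19.2% and 21.8% of all probe sets did). In controls 1 rose and 5 fell (18.1% and 17.2% of all probe sets did).

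Cytoskeletal targets of SRF and its MRTF coactivators had higher responses at 2 h in 9 of 23 measured members. The 1 lower response was that of Ccn1 (43.5% called in the list, against 14.1% of all genes, median 0.29). Fhl2, a LIM-domain cofactor, was at 8.53, 8.53 and 8.52 in depolarized arrays at 30 min against 9.10, 9.04 and 8.89 in controls, and at 10.21, 10.09 and 10.05 against 8.94, 8.96 and 8.87 at 2 h. The depolarized arrays lay wholly below the controls at 30 min and wholly above them at 2 h (difference 1.68, SE 0.09, adjusted p = 3.04e-08, and 1.69 at a dimmer probe set). Vcl, vinculin of focal adhesions, did the same, at 10.16, 10.09 and 10.12 against 10.50, 10.63 and 10.60 at 30 min and at 10.98, 10.57 and 10.68 against 10.05, 10.15 and 10.11 at 2 h (difference 1.09, SE 0.12, adjusted p = 2.67e-05). The Vcl probe set with the lowest p had 1.5. Zyx, zyxin, went from -0.05 to 0.71 and the actin crosslinker Actn1 from 0.14 to 0.85, both named after their values were seen.

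In this list the controls moved more than the depolarized cultures by the median. It changed by -0.33 in controls, where 14 of 23 fell and 0 rose, and by -0.05 in depolarized cultures, where 7 rose and 5 fell. Over all probe sets 17.2% fell and 18.1% rose in controls, and 19.2% rose and 21.8% fell in depolarized cultures. Ccn2, connective tissue growth factor and named after its values were seen, was at 12.55, 12.64 and 12.51 in depolarized arrays at 30 min and at 12.58, 11.87 and 12.28 at 2 h, which overlap. Its controls were at 11.49, 11.71 and 11.17 and then at 10.26, 10.15 and 10.08, so its difference of 0.97 (SE 0.21, adjusted p = 0.00459) came with a fall of 1.29 in controls and a change of -0.32 in depolarized cultures (adjusted p = 0.0896).

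Extracellular matrix and injury-linked genes had higher responses at 2 h in 7 of 22 members and lower ones in 0. Their called share was 31.8%, against 14.1% of all genes, with a median of 0.20. Lgals3, galectin-3, was at 9.05, 9.06 and 8.96 in depolarized arrays at 30 min and at 10.80, 10.13 and 10.76 at 2 h, against controls between 8.10 and 8.33 (difference 1.39, SE 0.18, adjusted p = 7.57e-05). Every depolarized array at 2 h stood above every other array. Lmna, the lamin A/C gene, went from 0.50 to 1.66 and Timp1, a metalloproteinase inhibitor, from 0.53 to 1.48. For Timp1 the controls fell by 0.74 and the depolarized cultures changed by 0.20 (adjusted p = 0.231).

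Mgp, matrix Gla protein, an inhibitor of calcification, was among the largest late rises, and here the controls moved. It was at 9.40, 9.76 and 9.73 in depolarized arrays at 30 min and at 9.37, 8.85 and 9.53 at 2 h, which overlap. Its controls were at 9.11, 9.71 and 9.52 and then at 7.59, 7.82 and 7.01 (difference 1.59, SE 0.28, adjusted p = 0.00125).

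Secreted and synaptic effectors of neuronal activity went both ways, with 4 higher and 3 lower among 28 measured (25%, against 14.1% of all genes). Nptx1, a secreted pentraxin that clusters AMPA receptors, was at 6.60, 6.56 and 6.46 in depolarized arrays at 30 min against 6.19, 6.08 and 6.36 in controls, and at 8.56, 8.07 and 8.80 against 6.54, 6.51 and 6.53 at 2 h (difference 1.63, SE 0.18, adjusted p = 2.85e-05). Vgf, a neuropeptide precursor, went from 0.74 to 2.04 (difference 1.31, adjusted p = 9.25e-05). Bdnf, a neurotrophin, went from 0.33 to 0.77 (difference 0.44, SE 0.09, adjusted p = 0.00324), at a probe set among the dimmest 25%. A still dimmer Bdnf probe set had 0.05 (adjusted p = 0.831). At the named probe sets the responses of Nptx1, Vgf and Bdnf grew from 30 min on, or appeared by 2 h.

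Arc, which regulates AMPA receptor endocytosis, lost part of its response, with depolarized arrays at 11.01, 10.88 and 10.25 at 30 min and at 9.70, 8.70 and 9.17 at 2 h (difference -1.14, SE 0.28, adjusted p = 0.0128). The call was lost with a trended and robust prior (adjusted p = 0.0532) and with an ordinary test (0.113). Homer1, a postsynaptic scaffold gene with a short activity-induced transcript, gave opposite results by probe set: 0.89 (adjusted p = 0.00252) at the one named by rule, -0.71 (adjusted p = 0.0102) at another, and no call at the other 3. Scg2, a granin, had responses of 1.47 and 1.42 (difference -0.05, SE 0.14, adjusted p = 0.881) although its level rose between the times by 2.17 in depolarized and 2.22 in control cultures.

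G-protein signalling genes with CREB feedback genes had 5 higher and 2 lower response differences among 20 (35%, against 14.1% of all genes). Rgs4, a GTPase-activating protein for Gi and Gq subunits and named after its values were seen, went from 0.46 to 1.19. The phosphodiesterase Pde10a went from -0.08 to 1.11 (difference 1.19, adjusted p = 0.000111) and Nfil3, a bZIP repressor, from 1.15 to 0.25. Rgs7, another member of the RGS family, went from 0.04 to -0.76, also named after its values were seen. Linker histone H1f2 went from 0.73 to 2.14 (difference 1.41, SE 0.13, adjusted p = 6.35e-06). Of 15 histone genes 3 had a higher and 0 a lower response at 2 h (20%, against 14.1% of all genes).

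Of 135 zinc finger transcription factors measured, 53 were below and 21 above control at 30 min (13.1% and 10.8% of all probe sets were), and 41 were below and 6 above at 2 h (15.7% and 9.51% of all). The response difference was higher for 24 and lower for 12 (26.7%, against 14.1% of all genes, median 0.06). Without depolarized replicate 3 at 30 min it was lower for 7. Of those called, 14 were transient falls and 8 fading falls. Zfp688 was at 6.88, 7.15 and 6.99 in depolarized arrays at 30 min against 8.07, 8.21 and 8.19 in controls, and at 8.37, 8.38 and 8.18 against 8.42, 8.10 and 8.21 at 2 h (difference 1.23, SE 0.13, adjusted p = 1.61e-05). Zfp157 was still below control at 2 h, at 9.07, 9.18 and 9.07 against 9.49, 9.46 and 9.49, after a wider gap at 30 min (difference 1.03, SE 0.09, adjusted p = 2.43e-06).

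Other transient falls came from varied functions. Mogs, a glucosidase that removes the first glucose from N-glycans in the ER, was at 7.56, 7.62 and 7.54 in depolarized arrays at 30 min and at 8.72, 8.71 and 8.74 at 2 h, with controls between 8.81 and 9.20 (difference 1.28, SE 0.11, adjusted p = 1.77e-06). Xbp1 was at 9.61, 9.81 and 9.81 in depolarized arrays at 30 min and between 10.50 and 10.66 on all 9 other arrays (difference 0.83, SE 0.09, adjusted p = 2.95e-05). For both genes the depolarized arrays moved, by 1.15 and 0.89, and the controls changed by -0.13 (adjusted p = 0.187) and 0.05 (adjusted p = 0.556). Dnajc14, an ER cochaperone, and Dnmbp, a CDC42 exchange factor, had differences of 1.24 and 1.22. Tut1, a terminal uridylyltransferase, had 1.09 and was a fading fall, still called below control at 2 h.

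In many late falls the controls moved more than the depolarized cultures. Scn2a, a neuronal sodium channel, was at 5.88, 5.80 and 5.82 in depolarized arrays at 30 min against 5.90, 5.79 and 5.94 in controls, and at 6.19, 6.34 and 6.32 against 7.20, 7.39 and 7.21 at 2 h. It rose between the times in both treatments, by 0.45 in depolarized and 1.39 in control cultures, and the response difference was -0.94 (SE 0.10, adjusted p = 2e-05). The Scn2a levels at 30 min were dim, well below the array medians of 8.326 to 8.433. A response below control at 30 min could therefore have been missed for Scn2a. Scn3a, of the same family, rose by 1.18 in depolarized and 1.80 in control cultures (difference -0.62, adjusted p = 0.00256). The calcium pump Atp2b2 rose by 0.88 in controls and changed by 0.08 in depolarized cultures (difference -0.80, adjusted p = 0.000205), with 0.01 at a dimmer probe set.

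Of the transmitter receptors, Gabrb2, Glra2 and Grin1 also had lower responses at 2 h, with controls that rose more than the depolarized cultures. The receptor gene Chrm4 and the channel gene Kcns3 went the other way, with differences of 0.52 and 0.78 (adjusted p = 0.00238 and 0.00134 by limma). Gabrb2, a GABA-A receptor subunit, was at 8.34, 8.30 and 8.59 in depolarized arrays at 30 min and at 9.07, 9.24 and 9.03 at 2 h, with controls at 8.22, 7.92 and 8.26 and then 9.91, 9.84 and 9.80. Its depolarized arrays lay above all controls at 30 min and below all controls at 2 h, so Gabrb2 was not a late fall. It rose by 0.70 in depolarized and 1.72 in control cultures (difference -1.01, SE 0.14, adjusted p = 0.000129), and a dimmer probe set had -0.10 (adjusted p = 0.649). The glycine receptor subunit Glra2 rose by 1.11 and 1.77 and the NMDA receptor subunit Grin1 by 0.36 and 0.81. Of 108 channel genes 7 had a lower and 2 a higher response difference, and of 90 receptor genes 6 and 3 (8.33% and 10%, below the 14.1% of all genes). The lower channel genes numbered 4 without control replicate 5 at 2 h. The pan-neuronal markers rose between the times by a median of 0.84 in depolarized and 1.06 in control cultures. Their median response difference was -0.22, against -0.02 over all genes, and their part in the channel and receptor values was not tested.

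In other late falls the depolarized cultures moved. Hes5, a Notch effector of progenitors, was at 8.69, 8.38 and 8.55 in depolarized arrays at 30 min and at 7.55, 7.78 and 7.63 at 2 h, with controls between 8.21 and 8.51 (difference -0.93, SE 0.13, adjusted p = 0.000206, and 0.12 at another probe set, adjusted p = 0.51). Pcca, a subunit of propionyl-CoA carboxylase, fell by 1.31 in depolarized and by 0.41 in control cultures.

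Among genes with opposite responses at the 2 times, Ccng2, a cyclin of cell cycle arrest, was at 9.83, 9.99 and 9.92 in depolarized arrays at 30 min against 8.95, 8.83 and 8.79 in controls, and at 8.66, 8.68 and 8.65 against 9.42, 9.33 and 9.15 at 2 h. The order of the groups turned over without overlap, from 2.08-fold above control to 1.56-fold below it (difference -1.70, SE 0.11, adjusted p = 1.04e-07). Hes1, a Notch-regulated repressor whose own mRNA oscillates, was at 10.98, 11.03 and 10.88 against 9.96, 9.90 and 9.81, and then at 9.31, 9.31 and 9.11 against 9.69, 9.65 and 9.76 (difference -1.53, SE 0.10, adjusted p = 1.88e-07). Its depolarized arrays fell by 1.72 between the times.

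Others that went from above to below control were Pnrc1, a nuclear receptor coactivator (0.87, then -0.57), Ip6k2, an inositol phosphate kinase (1.05, then -0.33), and Taf5, a TFIID subunit (0.79, then -0.55). Another Ip6k2 probe set was a transient fall, at 0.35 for the difference (adjusted p = 0.0354), and a dim Pnrc1 probe set had 0.01.

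Turning from below to above control, Slc16a6, a monocarboxylate transporter family member, was at 7.85, 7.68 and 7.39 in depolarized arrays at 30 min against 9.01, 8.87 and 8.84 in controls, and at 9.60, 9.32 and 9.62 against 8.80, 8.77 and 8.59 at 2 h (difference 2.06, SE 0.15, adjusted p = 5.86e-07, and 1.44 at its brighter probe set). The response went from 2.41-fold below to 1.74-fold above control. Tmem100, a membrane protein induced by BMP signalling, was at 7.57, 7.80 and 7.46 against 8.95, 9.03 and 8.82, and then at 8.49, 8.56 and 8.72 against 8.33, 8.31 and 8.27 (difference 1.61, SE 0.12, adjusted p = 8.11e-07). Metrnl, a secreted meteorin-like protein, had responses of -0.84 and 0.76, and Spsb1, a SOCS-box ubiquitin ligase adaptor, of -0.79 and 0.80.

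Rgs8, a regulator of G-protein signalling, was also below and then above control, but here the controls moved. Its depolarized arrays were at 8.20, 8.21 and 8.17 and then at 8.40, 7.95 and 8.11, and its controls at 8.98, 9.40 and 9.15 and then at 7.74, 7.52 and 7.71 (difference 1.48, SE 0.16, adjusted p = 1.74e-05). The change was -0.04 in depolarized cultures and -1.52 in controls.

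**Figure D3:**
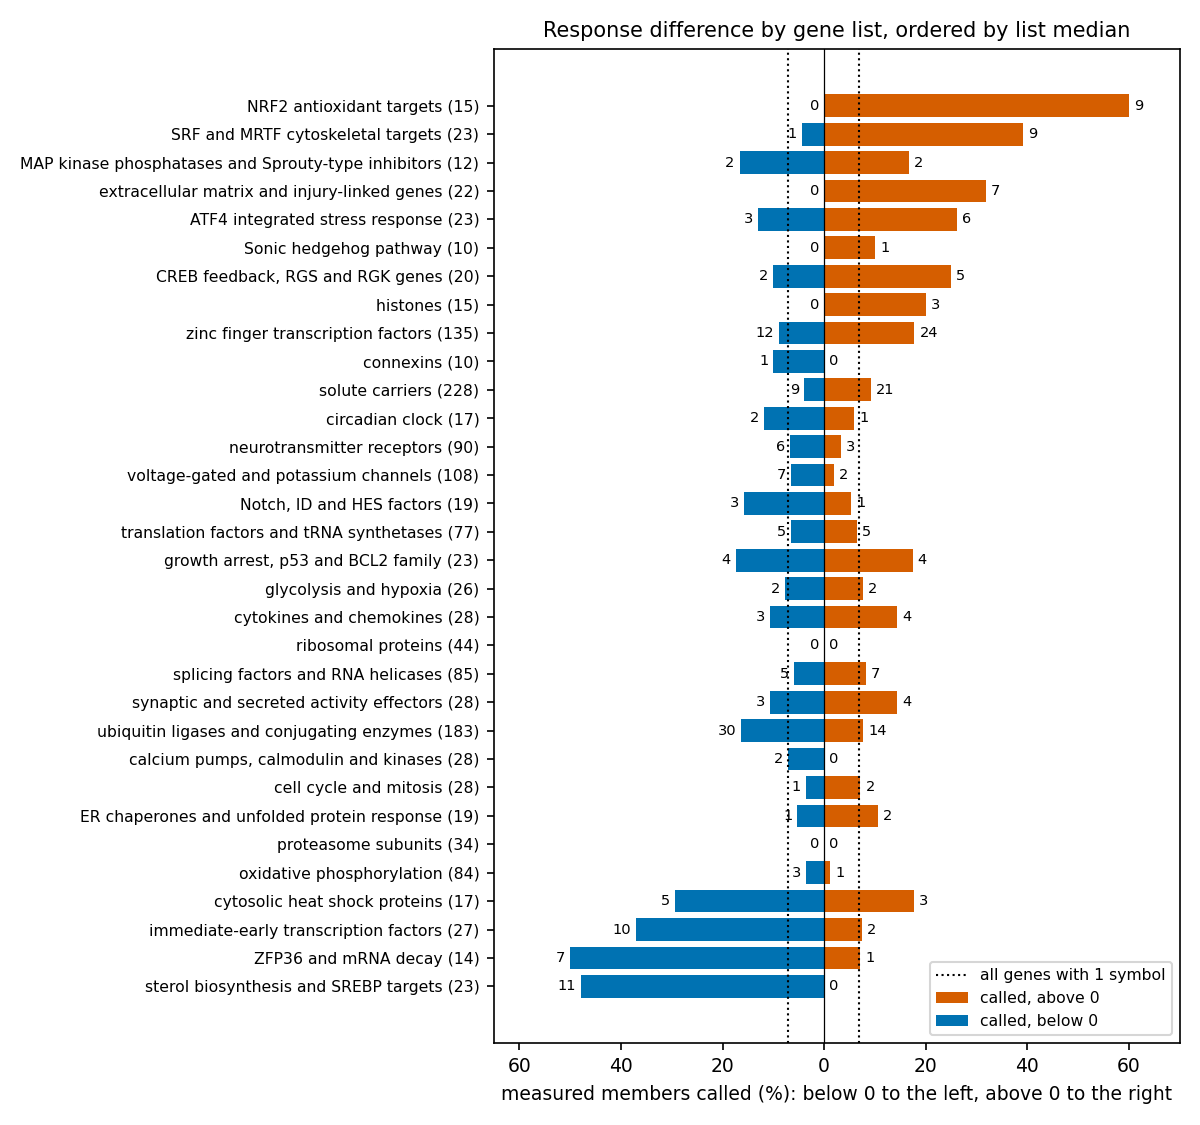
Percent of measured members (x axis) of 32 gene lists (y axis) whose response difference was called above or below 0; dotted lines give the shares over all genes with a symbol. NRF2 targets reach 60% above 0 and 0 below, and sterol genes 47.8% below 0 and 0 above.

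Because the response difference equals the change between collection times in depolarized cultures minus that in controls, each called probe set was also sorted by which of these changes passed. The sorting uses the same arrays as the difference and is a description. Over all probe sets 41% changed between the times in depolarized and 35.3% in control cultures. Of the 2055 called, 945 (45.99%) changed in depolarized cultures only, 470 (22.87%) in controls only, 249 (12.12%) in both in opposite directions, 359 (17.47%) in both in the same direction and 32 (1.557%) in neither. The opposite changes numbered 162 without control replicate 2 or 3 at 30 min and 159 without control replicate 5 at 2 h, and the changes in the same direction 220 without control replicate 2 at 30 min. The depolarized change was the larger of the 2 in 62.68% of called probe sets, against 51.01% of all tested. Its median size was 0.3948 in those called, against 0.2254 for the control change.

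**Figure D4:**
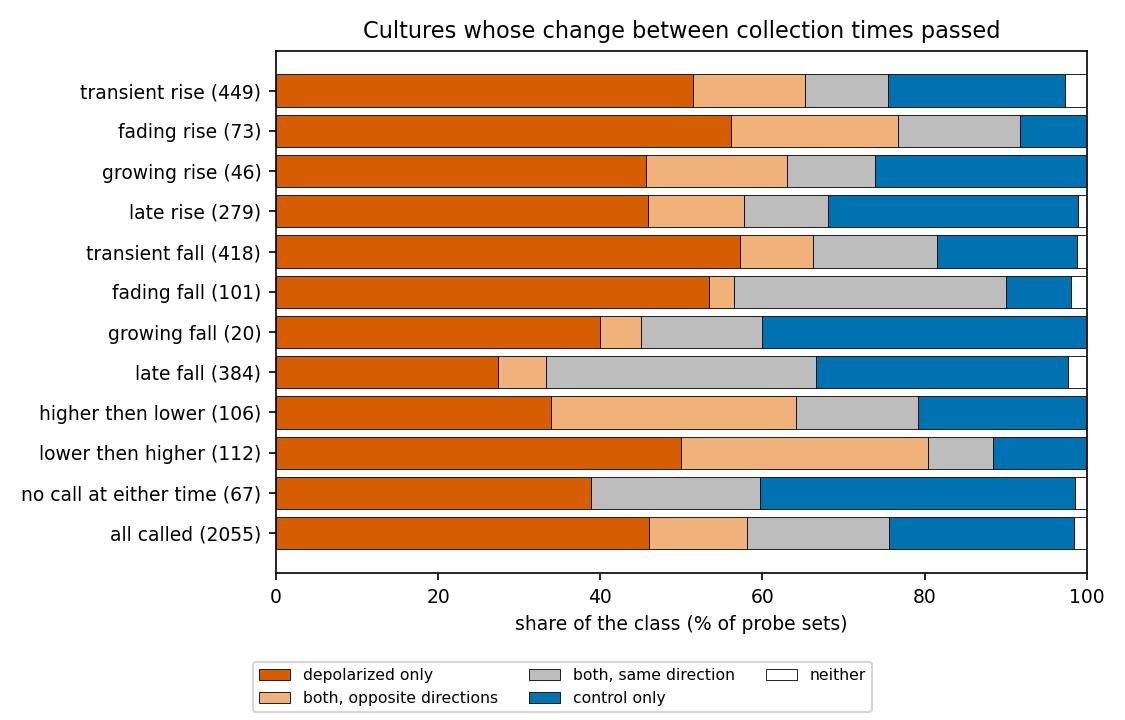
Share of the called probe sets of each time course group (x axis, %), divided by which cultures changed between 30 min and 2 h. The number of probe sets stands beside each group name. Depolarized cultures alone account for 239 of 418 transient falls, and controls alone for 119 of 384 late falls.

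The balance varied between the time courses. The depolarized change was larger in 87.13% of fading falls, 78.47% of transient falls, 78.08% of fading rises and 65.03% of transient rises, but in 36.2% of late falls. Of the 384 late falls, controls alone changed in 119, and in all 119 they rose, with medians of 0.3942 in controls and -0.03652 in depolarized cultures. In 128 more both changed in the same direction, and in 109 of these both rose. Of the 279 late rises, depolarized cultures alone changed in 128, and controls alone in 86, where all 86 controls fell. Plk2, a kinase of synaptic scaling, was a transient rise in which the controls moved: its depolarized arrays were at 10.08, 10.19 and 10.06 and then 10.16, 10.17 and 10.16, while controls went from 9.29, 9.29 and 9.01 to 9.92, 10.07 and 10.06 (difference -0.77, SE 0.11, adjusted p = 0.000227).

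**Figure D5:**
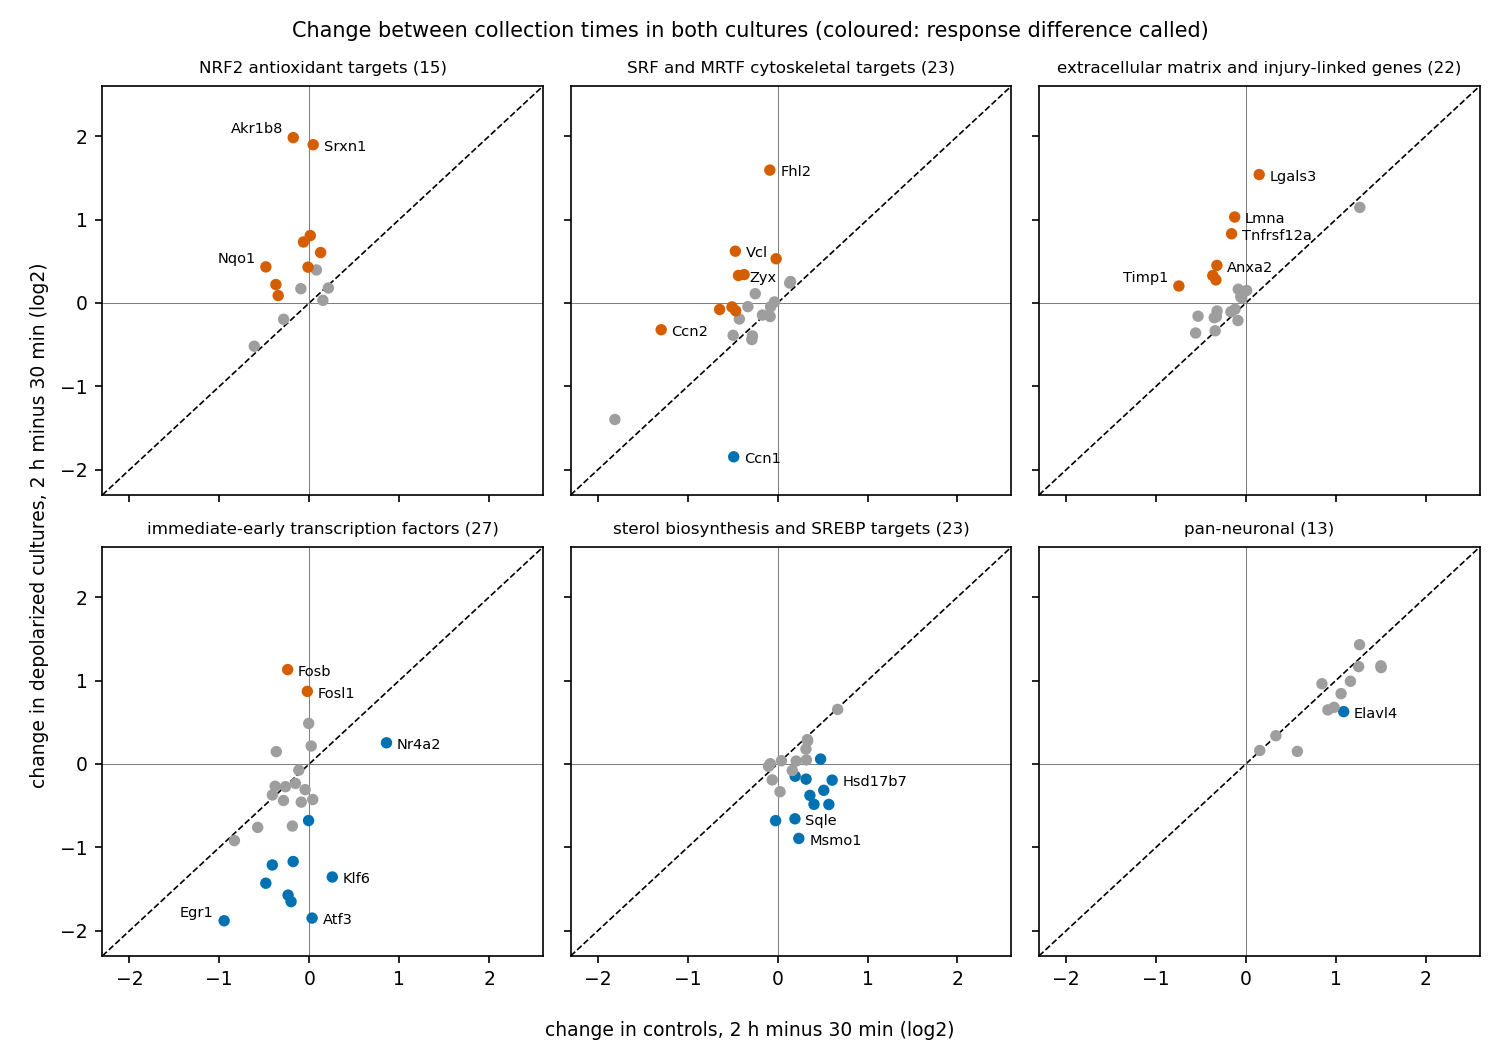
Change between 30 min and 2 h in control (x axis) and in depolarized cultures (y axis), both in log2 units, for members of 6 gene lists; each point is 1 gene, coloured where its response difference was called, and the diagonal marks no response difference. Atf3 and Akr1b8 lie far from the diagonal with control changes of 0.03 and -0.18. The 13 pan-neuronal markers had median changes of 1.06 in control and 0.84 in depolarized cultures and a median response difference of -0.22.

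Of 14 dopaminergic markers measured, 2 had a lower and 0 a higher response difference (14.3%, near the 14.1% of all genes). These were Nr4a2 and Aldh1a1, an aldehyde dehydrogenase, while Th did not pass the test. The Aldh1a1 difference was -0.92 (adjusted p = 0.0364 by limma), and its call was lost in 12 of 23 alternatives. Th had responses of 0.19 and -0.09 (difference -0.28, SE 0.18, adjusted p = 0.395), and without depolarized replicate 5 at 2 h the difference was -0.46 (adjusted p = 0.0497). Nr4a2, an orphan nuclear receptor needed by dopaminergic neurons, went from 0.87 to 0.26 (difference -0.61, SE 0.12, adjusted p = 0.00241), with depolarized arrays at 7.95, 7.92 and 7.86 and then 7.99, 8.21 and 8.29 and controls at 7.12, 7.0 and 7.01 and then 7.87, 8.05 and 7.79. Its controls rose by 0.86 and its depolarized cultures by 0.25, and a dimmer probe set had -0.43 (adjusted p = 0.133). Nr4a1, of the same family, had 1.78 and 1.23 (difference -0.56, SE 0.18, adjusted p = 0.0596), which passed without depolarized replicate 3 at 30 min (adjusted p = 0.00386) or depolarized replicate 6 at 2 h (0.0434). Nr4a1 also passed after quantile normalization (adjusted p = 0.0232) or loess (0.0446), with array weights (0.03) and without the dimmest 25% of probe sets (0.0438).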

How the data were processed

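Each of 12 samples was hybridized to 1 single-colour Affymetrix rat array. The deposited values are log2 levels, 1 for each probe set, and the submitters' processing notes name RMA. Its version and the arrays normalized together are not given in the sources used here. The table held 15923 probe sets, and 57 array controls were left out. The array annotation, which can be old, gave 1 symbol for 12783 of those tested, several for 312 and none for 2771, and genes are named only from the first kind. Precision is limited by the number of arrays, and no detection calls were used.

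All 12 arrays entered 1 limma fit with a mean for each group, using limma 3.58.1 in R 4.3.3 (8 residual degrees of freedom, no replicate block). Tests were two-sided with Benjamini-Hochberg adjustment over 15866 probe sets at 0.05, SE is that of the fit, and a call at each time or of each change uses the same fit. The fit was tested on simulated data. Named genes were the 6 largest called differences per time course group (4 where neither time was called), up to 3 called members per list by p, and a fixed set including Fos, Arc, Bdnf, Th and Scn2a, each gene at its lowest-p probe set. List members were taken at the brightest probe set. Further genes chosen after their values were seen are marked in the text, as are here Bag3, Hspb8, Ddit3 and Ddit4. The groups, lists and rule were chosen with earlier results of these data known. Alternatives were median centring, quantile normalization, loess removal of the intensity trend, an ordinary equal-variance test, a prior that is trended and robust, weights for arrays, omission of the dimmest 25% or 50%, adjusted p 0.01, a size of at least 1 log2 unit, the replicate number as a block, probe sets averaged per gene for lists, and each array left out in turn. Promoters are those of RefSeq for GRCr8.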

Additional observations from a re-analysis of the deposited data

Results flagged for a closer look

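The response differed between the collection times, by the interaction test itself, for 2055 probe sets, 978 above 0 and 1077 below 0. Among the named genes of opposite response, this test gave -1.7 for Ccng2, -1.53 for Hes1, -1.44 for Pnrc1, -1.38 for Ip6k2, -1.37 for Cnot4 and -1.34 for Taf5, which were above control at 30 min and below it at 2 h. It gave 2.06 for Slc16a6, 1.68 for Fhl2, 1.61 for Tmem100, 1.6 for Metrnl, 1.59 for Spsb1 and 1.5 for Vcl, which were below control and then above it. No test of single arrays that stand apart was run, and each group had 3 arrays.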

How the results depend on the processing

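Of 3551 alternative values for named genes, 3238 kept their side of the threshold, 305 lost the call and 8 gained one, and 0 called differences changed direction. The uncalled difference of Scg2, -0.05, was above 0 without control replicate 3 at 30 min (0.06) or control replicate 6 at 2 h. The ordinary equal-variance test called 1369 probe sets (647 above 0), with 167 late rises, 224 late falls and 290 moved in controls only. At adjusted p 0.01 there were 1085 (544 above, 541 below), with 154 late rises, 265 transient falls, 150 late falls, 28 higher then lower, 49 lower then higher, 622 moved in depolarized cultures only and 235 in controls only. A size of at least 1 log2 unit left 148 (92 above, 56 below), with 19 transient rises, 29 late rises, 18 transient falls, 1 late fall, 18 higher then lower, 30 lower then higher, 76 moved in depolarized cultures only and 7 in controls only. Without the dimmest 50% there were 172 late rises and 72 lower then higher. Among other named genes the ordinary test ended the calls of Ccn2 (adjusted p = 0.0638), Fosl1 (0.0947), Grin1 (0.0587), Hbegf (0.117) and Cxcl1 (0.0732). The cause was not tested beyond the fewer features or stricter limits of these settings.

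Leaving out each array gave 1624 to 2081 calls, 823 to 1026 above 0 and 779 to 1199 below. The ranges were 350 to 470 transient rises, 207 to 318 late rises, 342 to 458 transient falls, 234 to 477 late falls, 55 to 107 higher then lower, 77 to 125 lower then higher, 771 to 968 moved in depolarized cultures only, 316 to 498 in controls only, 159 to 271 in both in opposite directions and 220 to 357 in both in the same direction. They were 52 to 76 fading rises, 31 to 72 growing rises, 59 to 102 fading falls and 4 to 35 growing falls. Scaling gave 2159 calls after median centring (44.88% above 0), 2186 after quantile normalization (52.88%) and 2125 after loess (50.96%), sharing 2020, 1872 and 1917 with the 2055. Of 101 fading falls 65 to 68 and of 20 growing falls 8 to 11 stayed in their group under these scalings.

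With the replicate block 1816 probe sets were called, 891 above and 925 below, and Nr4a1 passed (adjusted p = 0.0144). Deviations of same-numbered arrays correlated above 0.1 in 2 of 6 pairs and 4 of 12 arrays correlated best with their own number, so the numbers were not taken to pair the samples. The changes between times cannot be fitted within the block. With 3 arrays a group, the median SE of a difference was 0.1074 log2 units, which limits what small differences can show.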

Other observations

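Among cytokines and chemokines, 4 of 28 had a higher and 3 a lower response at 2 h (25%, against 14.1% of all genes). The called total was 4 without control replicate 2 at 30 min and 3 without control replicate 5 at 2 h. Hbegf, a ligand of the EGF receptor, was at 8.93, 7.57 and 8.64 in depolarized arrays at 2 h against 6.74, 6.80 and 6.84 in controls, after a response of 0.33 at 30 min (difference 1.26, SE 0.31, adjusted p = 0.0134 by limma). The call was lost with a trended and robust prior (adjusted p = 0.0571). Cxcl1, a neutrophil chemokine, went from 1.77 to 0.78 (difference -0.99, adjusted p = 0.00583).

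Of 26 genes of glycolysis and hypoxia 2 had a higher and 2 a lower response at 2 h (15.4%, near the 14.1% of all genes). The called total was 2 without control replicate 3 at 30 min or, at 2 h, without control replicate 5 or depolarized replicate 4 or 6. Adm, the vasoactive peptide adrenomedullin, was at 9.21, 9.76 and 9.42 in depolarized arrays at 30 min and at 7.77, 7.15 and 7.43 at 2 h, above its controls at both times (difference -1.41, SE 0.19, adjusted p = 0.000129). Egln3, an oxygen-sensing prolyl hydroxylase, went from -0.11 to 0.59. Slc25a25, a mitochondrial ATP-Mg carrier, went from 1.58 to 0.28, one of 9 lower and 21 higher response differences among 228 solute carriers (13.2%, near the share of all genes). Cell cycle genes fell between the times in both treatments, 23 of 28 in depolarized (21.8% of all probe sets did) and 26 of 28 in control cultures (17.2% of all), and 3 had a response difference (10.7%, below the share of all genes).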
